A study of Mus musculus with 75 samples.

Results

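The step from passage 3 (P3) to passage 5 (P5) of serially cultured mouse skin fibroblasts was examined by RNA-seq, with every gene compared between the 4 libraries of P5 and the 4 libraries of P3. These 8 libraries, out of 75 samples in all, were taken by their passage and replicate labels. The cells came from the skin of 2-month-old female C57BL/6 mice, grew in DMEM with 10% fetal bovine serum, with antibiotics against bacteria and mycoplasma, and no passage carried an introduced gene or an experimental treatment. The 4 libraries each of P1 and P7 served for the steps before and after. E2f4 was manipulated in separate libraries, by a doxycycline-induced lentivirus in pre-senescent P4 cells (2 libraries against 2 of the vector control) and by the hairpin sh1 in proliferating P3 cells (3 against 3 with a non-targeting hairpin). Cells used for such manipulations came from newborn as well as 2-month-old mice. The labels do not say whether the libraries of a passage came from separate mice or cultures, so p-values measure the spread between these libraries, which may be technical.

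Fibroblasts that are split again and again slow down and at last stop dividing, a state called replicative senescence. Entry into S phase depends on E2F factors, which pocket proteins hold in check until cyclin-dependent kinases (CDKs) release them. Genes of mitosis are switched on later in the cycle, through the MuvB core with MYBL2 and FOXM1. CDK inhibitors, among them p16 (from Cdkn2a), p15 (Cdkn2b) and p21 (Cdkn1a), block the kinases and are widely used as marks of senescent cells.

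The libraries held between 13846345 and 15385843 counts at P3 and between 14762747 and 15725823 at P5, and 13442 of 24984 genes had enough counts to be tested. Levels are in CPM, scaled to library size with TMM factors and not divided by gene length, so they are not compared between genes. A gene is said to have risen or fallen where its adjusted p in edgeR's quasi-likelihood test was under 0.05, and to be called where its fold change was also over 2. It is said to depend on a library where it no longer passed once that library was left out. Changes are log2 fold changes of P5 against P3 with their standard error (SE). On the first principal component of the 8 libraries, with 46.3% of the variance, the P3 libraries scored between -31.7 and -17.3, P5 replicates 1 and 2 scored 16.2 and 16.4, and replicates 3 and 4 lay further out at 34.4 and 37.1.

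At P5, 2057 genes had fallen (15.3% of those tested) and 1805 had risen (13.4%). Of these, 410 were called lower (3.05%) and 113 called higher (0.841%). All P5 libraries lay below all P3 libraries for 1856 genes (13.8%) and above them for 1637 (12.2%). In 8 lists of replication, mitosis, repair, chromatin and E2F genes, 191 of 231 genes tested fell, 2 rose (4 without P3 replicate 4 or P5 replicate 2) and 109 were called lower (47.2%), whereas 301 of the other 13211 genes were called lower (2.28%). Of the 410 genes called lower, 22 more were markers of other cell types, 12 were in further lists and 267 in none. In bulk RNA, fewer cells that express a gene and less RNA per cell cannot be told apart. The number of rising genes depended on single libraries, being 1185 without P3 replicate 3, 1188 without P5 replicate 3 and 1144 without P5 replicate 4. Falling genes moved as well, from 1486 without P5 replicate 3 to 2316 without P5 replicate 2. Genes called lower ranged from 360 to 436 and genes called higher from 91 to 151. With both P5 replicates 3 and 4 left out, which was chosen after seeing the data, 851 genes fell, 500 rose and 45 were called higher, and in the 8 lists 170 genes fell and 83 were called lower.

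**Figure D1:**
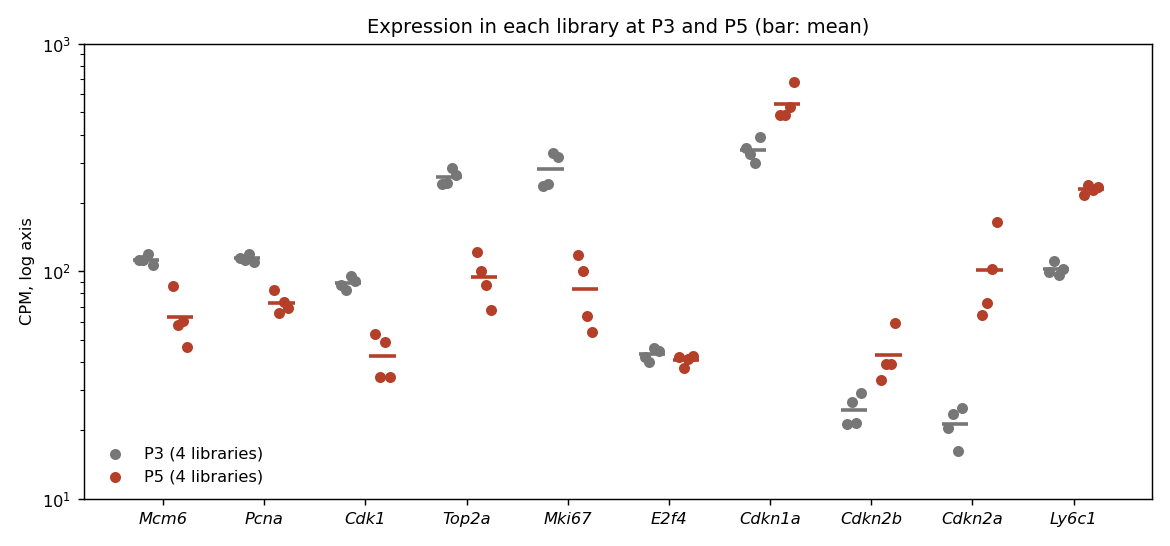
CPM on a log axis of 10 genes in each of the 4 libraries of P3 and the 4 of P5, with a bar at each mean. Mcm6, Pcna, Cdk1, Top2a and Mki67 were lower in all P5 libraries than in any P3 library, E2f4 overlapped, and Cdkn1a, Cdkn2b, Cdkn2a and Ly6c1 were higher in all P5 libraries.

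Promoters of 6 replication and mitosis genes are shown because the lists that fell differ in the letters found there. The bases just before each gene are given 5′ to 3′ on its own strand, from RefSeq on GRCm38.p6. Capitals mark E2F words, which are TTCCCGC and TTGGCGC and TTGCCGC and TTCGCGC, the CHR element that MuvB complexes bind, with TTTGAA and TTCGAA, and the CCAAT box bound by NF-Y. Each was searched on both strands, and words of these motifs may overlap. Mcm6 (chr1:128359706-128359955) encodes a subunit of the replicative helicase and Pcna (chr2:132253181-132253430) the sliding clamp of the polymerases. Cdk1 (chr10:69352913-69353162) encodes the mitotic kinase and Ccnb1 (chr13:100786487-100786736) its partner cyclin B1. Top2a (chr11:99024200-99024439) encodes the topoisomerase that untangles chromosomes and Mki67 (chr7:135716451-135716629) the Ki-67 antigen of dividing cells. All 6 genes lie on the minus strand.
Mcm6: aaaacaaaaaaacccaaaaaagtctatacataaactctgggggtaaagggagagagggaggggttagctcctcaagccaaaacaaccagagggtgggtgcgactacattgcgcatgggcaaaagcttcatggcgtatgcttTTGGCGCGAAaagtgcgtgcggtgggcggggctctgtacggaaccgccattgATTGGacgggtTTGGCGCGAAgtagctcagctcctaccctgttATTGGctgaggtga
Pcna: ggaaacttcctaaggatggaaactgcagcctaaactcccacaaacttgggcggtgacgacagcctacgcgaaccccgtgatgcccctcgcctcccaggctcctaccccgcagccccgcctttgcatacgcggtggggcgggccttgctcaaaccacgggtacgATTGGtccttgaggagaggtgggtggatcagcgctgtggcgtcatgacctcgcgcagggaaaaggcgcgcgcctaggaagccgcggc
Cdk1: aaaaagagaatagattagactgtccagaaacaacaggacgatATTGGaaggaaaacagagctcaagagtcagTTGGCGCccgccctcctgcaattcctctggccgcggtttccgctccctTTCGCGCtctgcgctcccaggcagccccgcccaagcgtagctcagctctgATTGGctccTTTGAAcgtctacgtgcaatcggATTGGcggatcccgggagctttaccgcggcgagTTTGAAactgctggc
Ccnb1: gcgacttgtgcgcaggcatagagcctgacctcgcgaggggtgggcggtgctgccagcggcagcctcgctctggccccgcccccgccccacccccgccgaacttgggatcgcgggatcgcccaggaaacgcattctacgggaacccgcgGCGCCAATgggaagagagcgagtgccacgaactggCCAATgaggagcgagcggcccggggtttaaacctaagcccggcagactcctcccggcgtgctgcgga
Top2a: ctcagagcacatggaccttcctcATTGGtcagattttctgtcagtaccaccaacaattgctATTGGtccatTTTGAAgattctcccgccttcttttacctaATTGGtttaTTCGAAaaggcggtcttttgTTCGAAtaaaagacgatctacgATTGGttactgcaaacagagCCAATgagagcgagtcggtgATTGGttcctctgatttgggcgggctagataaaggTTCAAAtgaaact
Mki67: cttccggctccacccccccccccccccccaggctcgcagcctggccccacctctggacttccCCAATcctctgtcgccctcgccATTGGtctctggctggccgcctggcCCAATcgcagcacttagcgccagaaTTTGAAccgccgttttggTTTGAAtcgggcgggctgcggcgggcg

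The Mcm6 promoter held 2 stretches of E2F letters and no CHR, and that of Cdk1 held 2 of each. That of Ccnb1, a mitotic gene, held 1 stretch of E2F letters and no CHR. Those of Top2a and Mki67 held 4 and 2 stretches of CHR letters and none of E2F, and the bases of Pcna held 1 CCAAT box alone. These sequences stop before the annotated gene, so words further on were not counted in them, and only the words given above were searched. In windows from 250 bases before to 50 bases after the start, E2F words were present in 56.5% of 23 windows of origin licensing genes and 67.9% of 28 windows of replication fork genes, against 16.1% for all genes tested and 9.57% of all 32851 windows. CHR words were present in 71.4% of 56 windows of spindle genes, 30.4% for licensing, 10.7% for the fork, 13.8% for all genes tested and 19.2% of all windows. CCAAT was present in 76.8% of the spindle windows, 60.9% for licensing, 46.4% for the fork and 37.5% for all genes tested. E2F words were present in 25% of the spindle windows. Without the 50 bases after the start, the E2F share was 32.1% for fork genes and 13.4% for all genes tested, and the CHR share 37.5% for spindle genes and 12.2% for all genes tested. Of the 410 genes called lower, 317 had a window, and 24.1% of their 361 windows held an E2F word and 31.9% a CHR word. The shares were 45.5% and 53.5% in the 99 windows of called genes from the 8 lists, and 16% and 23.7% in the other 262. AP-1 words, which are TGACTCA and its other strand TGAGTCA, were in 3.05% of the windows of genes called lower, 4.27% of the 117 windows of genes called higher and 3.86% for all genes tested. These are matches of letters and not measured binding.

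Replication genes fell together. Counts in this and the following cell cycle lists stand against 15.3% of all genes tested that fell and 3.05% that were called lower. Of 23 genes of origin licensing and the helicase 19 fell, none rose and 8 were called lower, with a median of -0.84, where the median over all genes tested was 0.0056. Mcm6 was at 112, 112, 119 and 107 CPM in P3 replicates 1 to 4 and at 85.9, 58.4, 60.5 and 46.5 CPM in those of P5. The passages did not overlap, with P5 replicate 1 nearest to P3, and the change was -0.84, SE 0.13 (adjusted p = 0.000109). Falls were larger for the initiation factor Mcm10 (-1.42, SE 0.18), the helicase subunit Mcm5 (-1.25, SE 0.12), the helicase loader Cdc6 (-1.21, SE 0.19) and Dbf4, the activator of the CDC7 kinase (-1.10, SE 0.16).

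Of 29 replication fork genes 25 fell and none rose, with a median of -0.67. The checkpoint mediator Clspn (-1.50, SE 0.12), the clamp unloader Atad5 (-1.43, SE 0.16), the primase-polymerase subunit Pola1 (-1.41, SE 0.15) and the clamp loader subunit Dscc1 (-1.37, SE 0.27) fell most. Pcna was at 114 ± 4.06 CPM at P3 and 72.7 ± 7.72 CPM at P5 (mean ± SD, n = 4), a change of -0.65, SE 0.086. Nucleotide synthesis genes fell less, with 11 of 18 falling and a median of -0.32. The ribonucleotide reductase subunits Rrm1 (-0.91, SE 0.13) and Rrm2 (-0.76, SE 0.095), thymidine kinase Tk1 (-0.89, SE 0.16) and deoxycytidine kinase Dck (-0.88, SE 0.10) were among them. Tk1 shares exon bases with Afmid, so reads there are uncertain.

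The mitotic genes fell further. Over all genes tested 15.3% fell and 3.05% were called lower. Of 57 genes of the spindle, kinetochore and cytokinesis 54 fell, none rose and 49 were called lower, with a median of -1.29, and 54 fell in each fit that left out 1 library. The 3 that did not pass were Bub3 (-0.14), Cenpm (-0.30) and Pttg1 (0.31). Mki67 was at 239, 241, 330.2 and 318 CPM at P3 and at 118, 100.3, 63.8 and 54.3 CPM at P5. No P5 library reached the P3 range, replicates 3 and 4 were lowest, and the change was -1.75, SE 0.18 (adjusted p = 3.46e-06). The spindle motor Kif15 (-1.79, SE 0.15), the checkpoint kinase Ttk (-1.75, SE 0.18) and the kinetochore scaffold Knl1 (-1.71, SE 0.17) changed by like amounts. Top2a was at 259 ± 19.8 CPM at P3 and 94.3 ± 22.9 CPM at P5 (-1.46, SE 0.13).

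Among 30 cyclins and cell cycle kinases 23 fell and 2 rose (4 without P3 replicate 4), with a median of -0.97. Cyclins of S phase and mitosis fell, namely Ccne2 (-1.54, SE 0.21), Ccna2 (-1.43, SE 0.13) and Ccnb1 (-1.40, SE 0.18). The G1 cyclins Ccnd2 (0.51) and Ccnd3 (0.43) rose, and Ccnd1, with means of 279.5 CPM at P3 and 414 CPM at P5, did not pass (adjusted p = 0.0557). Cdk1 was at 87, 82.6, 95.5 and 90.6 CPM at P3 and at 53.3, 34.4, 48.7 and 34.3 CPM at P5, without overlap (-1.06, SE 0.16). Fbxo5, an inhibitor of the anaphase-promoting complex (-1.54, SE 0.21), and Plk4, the kinase of centriole duplication (-1.53, SE 0.12), fell more. Cdk4 (0.09) and Cdk6 (0.23), which partner the D cyclins, did not pass. Ccna2 shares exon bases with Exosc9 and Ccne2 with Ints8.

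The repair and chromatin counts stand against 15.3% of all genes tested that fell and 3.05% that were called lower. Of 27 recombination and Fanconi repair genes 21 fell and 15 were called lower, with a median of -1.01. Brca1 (-1.55, SE 0.14), the helicase Blm (-1.54, SE 0.16), Palb2, which joins BRCA1 to BRCA2 (-1.48, SE 0.25), and Fancb (-1.44, SE 0.16) fell most. Of 25 chromatin and nuclear envelope genes of dividing cells 24 fell and 10 were called lower. The condensin subunit Ncapg2 (-1.63, SE 0.13), the remodeller Hells (-1.51, SE 0.15) and Uhrf1, a guide of maintenance DNA methylation (-1.25, SE 0.14), led them. Lamin B1 (Lmnb1), whose loss is used as a mark of senescence, was at 79.1 ± 7.22 CPM at P3 and 33.7 ± 7.54 CPM at P5, and Hmgb2 at 34 ± 5.48 CPM at P3 and 14.8 ± 2.39 CPM at P5. Lmna, of the A-type lamins, was the 1 gene that did not pass (0.08).

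**Figure D2:**
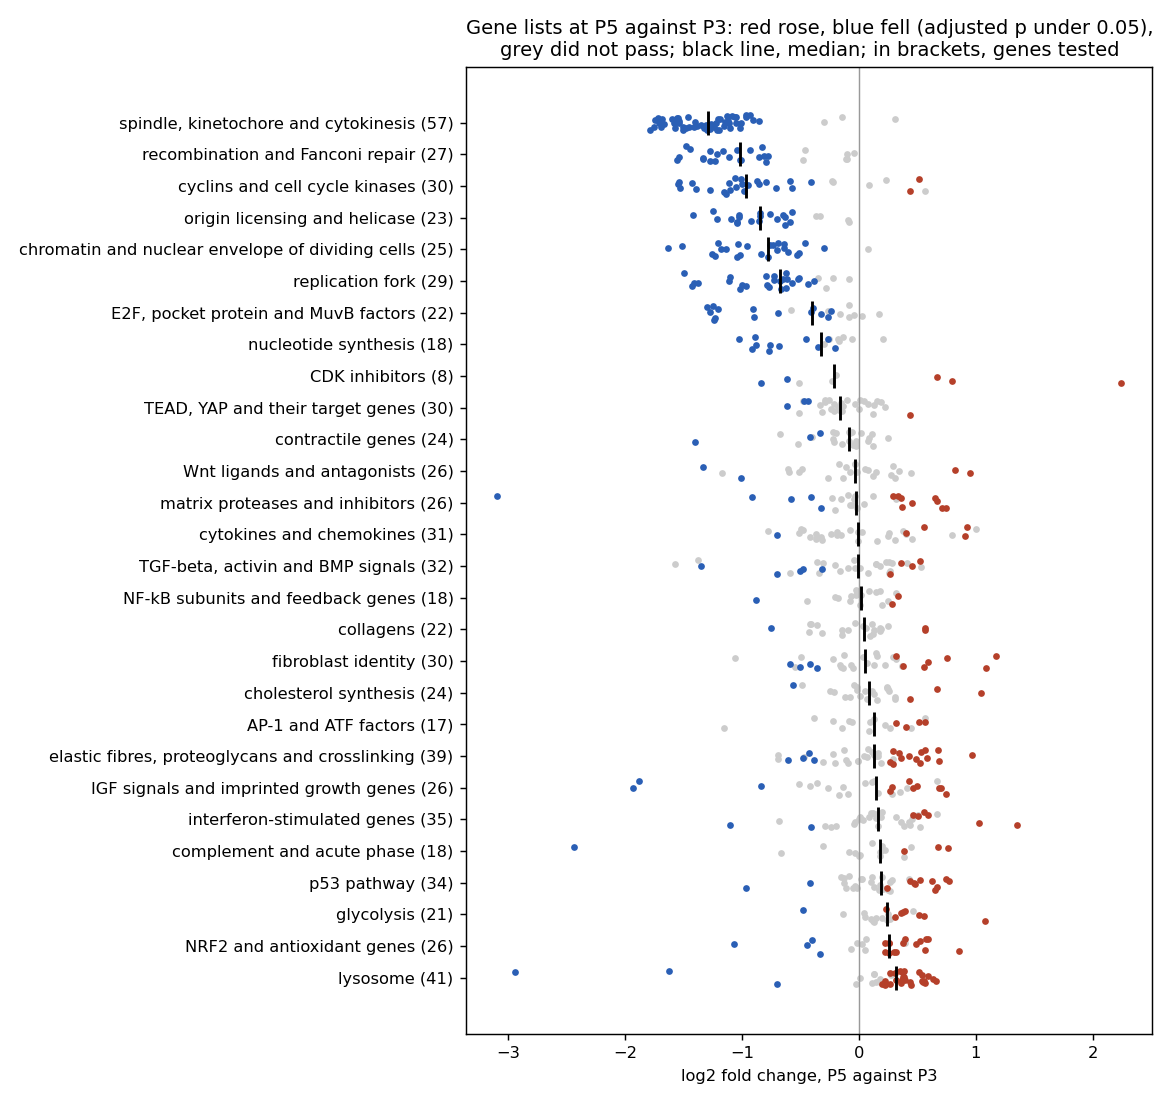
Log2 fold change at P5 against P3 of each tested gene of 28 lists, red where it rose, blue where it fell and grey where it did not pass, with a black line at the median of each list. The spindle list has the lowest median, -1.29, and the lysosome list the highest, 0.31.

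Not all regulators of these genes fell. Of 22 E2F, pocket protein and MuvB genes tested 14 fell and none rose, and 9 fell without P5 replicate 4. The repressors E2f8 (-1.30, SE 0.21) and E2f7 (-1.28, SE 0.19) and the mitotic activators Foxm1 (-1.25, SE 0.13) and Mybl2 (-1.21, SE 0.13) were called lower, as were the MuvB subunit Lin9 (-1.23) and Mycn, a gene at 0.786 CPM at P3 that depended on each of 4 libraries. The activator E2f1 was at 41.2 ± 8.57 CPM at P3 and 39.9 ± 3.58 CPM at P5 (-0.05, adjusted p = 0.79). E2f4, which works mostly with pocket proteins in resting cells, was at 42.2, 39.9, 45.9 and 44.8 CPM at P3 and at 42.1, 37.7, 41.2 and 42.3 CPM at P5. Its libraries overlapped, and its change was -0.08 (SE 0.087, adjusted p = 0.502).

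Among 8 CDK inhibitor genes 3 rose and 2 fell, where 13.4% of all genes tested rose and 15.3% fell. Cdkn2a was at 20.5, 23.7, 16.3 and 25.1 CPM at P3 and at 64.4, 72.7, 102 and 166 CPM at P5. All P5 libraries lay above P3, replicates 3 and 4 were highest, and the change was 2.24, SE 0.23 (adjusted p = 2.22e-06). Counts were made per gene, so the p16 and p19Arf transcripts of Cdkn2a cannot be told apart. Cdkn2b was at 24.6 ± 3.88 CPM at P3 and 42.7 ± 11.5 CPM at P5 (0.80, SE 0.17) and Cdkn1a at 342 ± 36.9 CPM at P3 and 544 ± 90.7 CPM at P5 (0.67, SE 0.11), neither with overlap. Cdkn3 (-0.84, SE 0.23) and Cdkn2c (-0.61) fell, Cdkn3 not without P3 replicate 3, and Cdkn1b (-0.20), Cdkn1c (-0.51) and Cdkn2d (-0.23) did not pass.

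Of 34 p53 pathway genes tested 10 rose and 2 fell, where 13.4% of all genes tested rose and 15.3% fell, and 1 fell without P3 replicate 3, P3 replicate 4, P5 replicate 3 or P5 replicate 4. Beside Cdkn1a, the cell death gene Bbc3 (0.77, SE 0.19) and the reductase Dcxr (0.75, SE 0.17) rose, and Ckap2, which also serves the spindle, fell (-0.97, SE 0.13). Trp53 itself was at 130 ± 2.83 CPM at P3 and 119 ± 9.37 CPM at P5 (-0.13, adjusted p = 0.212), and Mdm2, the ligase that degrades p53, at 189 ± 21.7 CPM at P3 and 178 ± 17.5 CPM at P5 (-0.08, adjusted p = 0.512).

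**Figure D3:**
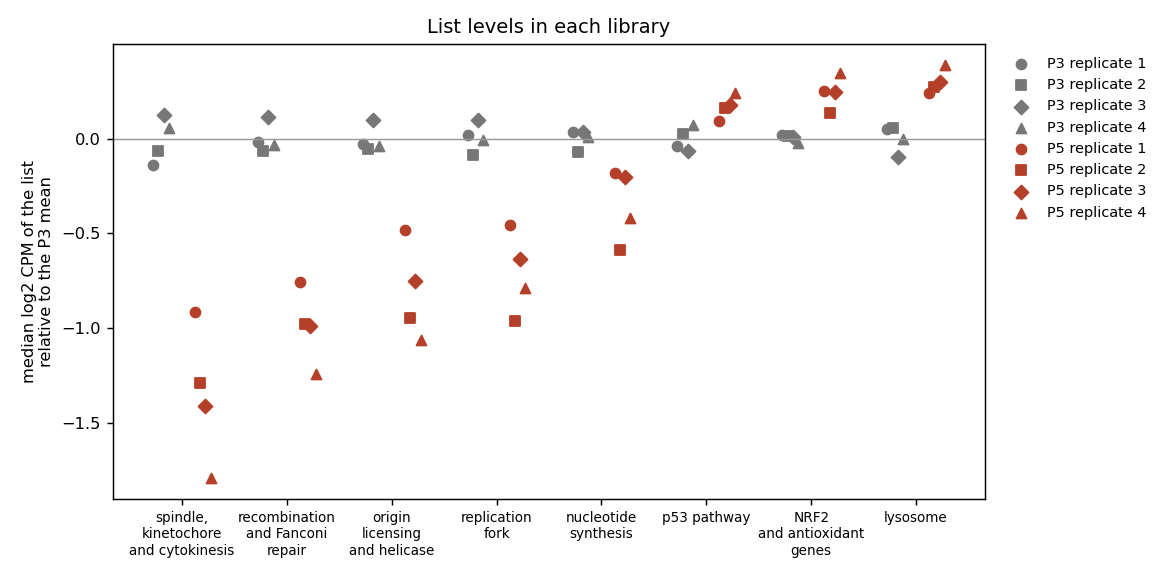
Median log2 level of the tested genes of 8 lists in each library, relative to the P3 mean of each gene, with one marker shape per replicate number. The spindle list was at -0.912, -1.29, -1.41 and -1.79 in P5 replicates 1 to 4, and the lysosome list between 0.239 and 0.39.

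P5 libraries differed among themselves, and in a different order from list to list. The spindle list was least changed in P5 replicate 1 (-0.912) and lowest in replicate 4 (-1.79). Fork genes (-0.96) and nucleotide synthesis genes (-0.589) were lowest in replicate 2. In these 3 lists every P5 library lay below every P3 library.

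The steps of passaging were then compared, bearing in mind that neighbouring steps share the P3 or the P5 libraries. Markers of several other cell types fell from P1 to P3, with medians of -3.22 for macrophages, -6.7 for keratinocytes and -3.1 for skeletal muscle. Those of Schwann cells and melanocytes (0.39) and pericytes (0.17) did not. The part of such cells in the step differences was not tested. The spindle list had a median of -0.09 from P1 to P3, -1.29 from P3 to P5 and -1.35 from P5 to P7. By a test of the difference between steps, 47 of its 57 genes fell more from P3 to P5 than from P1 to P3 and none less, where 9.46% of all genes tested lay below the earlier step (36 to 50 spindle genes when single libraries were left out). Plk4 had means of 49.6, 46, 16 and 8.75 CPM over the 4 passages, and the difference between its first 2 steps was -1.42, SE 0.20, adjusted p = 0.000297. Licensing genes had a median of -0.48 already from P1 to P3, and 3 of 23 fell more at P3 to P5 (1 without P3 replicate 3 or 4, and 5 without P3 replicate 1, P5 replicate 1 or P5 replicate 2). Fork genes had a median of -0.55, and 3 of 29 fell more (1 without P3 replicate 4 and 8 without P5 replicate 1). The count was 15 of 30 for cyclins and kinases, 12 of 25 for chromatin (5 without P3 replicate 3) and 8 of 27 for recombination (4 without P3 replicate 3, P3 replicate 4 or P5 replicate 4). Over all genes 1271 lay below the earlier step (9.46%) and 994 above (7.39%), and these were 493 and 429 without P3 replicate 4, 573 and 478 without P3 replicate 2, and 698 and 519 without P3 replicate 3. Against the step from P5 to P7, 90 genes lay below (0.67%) and 86 above (0.64%), among them no gene of the licensing, fork, nucleotide, cyclin, spindle, recombination or chromatin lists.

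**Figure D4:**
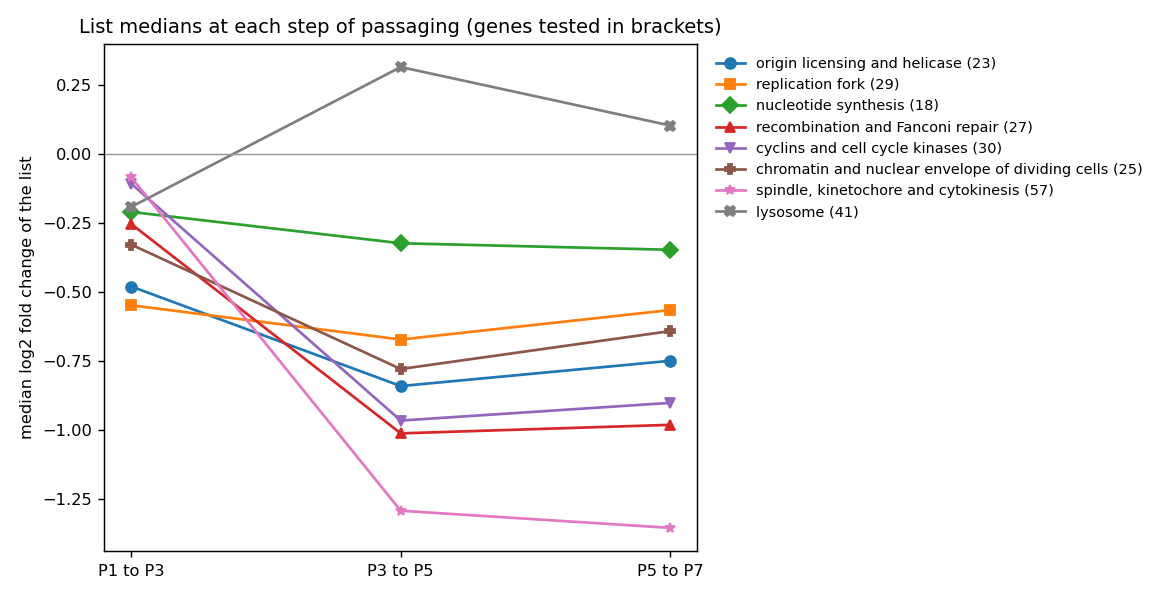
Median log2 fold change of 8 lists at each of the 3 steps of passaging. The spindle list went from -0.09 at P1 to P3 to -1.29 at P3 to P5, the licensing list from -0.48 to -0.84, and the lysosome list from -0.19 to 0.31.

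Lysosome genes rose by small amounts. Of 41 lysosomal enzymes, membrane proteins and proton pump subunits 28 rose and 3 fell, with a median of 0.31, and 17 rose without P3 replicate 3. Among all genes tested 13.4% rose and 15.3% fell. The cathepsins Ctsf (0.66, SE 0.18) and Ctsd (0.59, SE 0.092) and the glycosidase Naglu (0.63, SE 0.13) rose. The 3 that fell were the cathepsins Ctss (-2.94, SE 0.39) and Ctsc (-0.70, SE 0.18) and the pump subunit Atp6v0d2 (-1.62, SE 0.38), and Ctss and Atp6v0d2 are best known from macrophages and osteoclasts. From P1 to P3 the list had a median of -0.19, and 17 of its genes lay above that step, where 7.39% of all genes tested did. Macrophage markers had a median of -3.22 over that earlier step, and the part of their cells in the lysosome values was not tested.

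Of 26 NRF2 and antioxidant genes 15 rose and 4 fell, and 6 to 14 rose when single libraries were left out, over 1.5 times off without P3 replicate 2, P3 replicate 3, P3 replicate 4, P5 replicate 3 or P5 replicate 4. These counts and those of glycolysis stand against 13.4% of all genes tested that rose and 15.3% that fell. Extracellular superoxide dismutase Sod3 (0.86, SE 0.23) and the glutathione transferase Gstm2 (0.59, SE 0.10) rose, the cystine importer Slc7a11 fell (-1.07, SE 0.17), and Osgin1 (0.57) depended on each of 5 libraries. In glycolysis 8 of 21 genes rose and 1 fell, and 2 to 7 rose when single libraries were left out, over 1.5 times off without P3 replicate 4 or P5 replicate 3. Phosphofructokinase Pfkm rose (0.56, SE 0.099), as did Pfkl (0.51, not without P5 replicate 3), while Aldoc (1.08) and Slc16a1 (-0.47) depended on 5 and 4 libraries. In cholesterol synthesis 3 of 24 rose and 1 fell, where 13.4% of all genes tested rose and 15.3% fell. From 1 to 5 rose when single libraries were left out, over 1.5 times off without P3 replicate 4, P5 replicate 3 or P5 replicate 4. Tm7sf2, a sterol reductase that shares exon bases with Vps51, rose (1.05, SE 0.24), the sterol carrier Stard4 fell (-0.56, SE 0.14), and Mvd (0.67) and Mvk (0.44) depended on 2 and 3 libraries.

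Fibroblast markers stayed high. Of 12 such markers 3 rose and none fell, with a summed level of 32900 to 38400 CPM at P3 and 34400 to 43000 CPM at P5. In a wider list of fibroblast identity 7 of 30 genes rose and 4 fell, where 13.4% of all genes tested rose and 15.3% fell. From 2 to 5 fell when single libraries were left out, over 1.5 times off without P3 replicate 3 or P5 replicate 3. Ly6c1, a surface antigen, was at 99.9, 111, 96.1 and 102 CPM at P3 and at 217, 239.7, 229 and 235 CPM at P5. Its passages were far apart and its libraries close together (1.17, SE 0.12), and Ly6a (Sca-1) was at 181 ± 28.7 CPM at P3 and 385 ± 57.3 CPM at P5 (1.09, SE 0.15). Gsn, the actin-severing gelsolin (0.59, SE 0.11), and Thy1 (0.32, SE 0.079) rose as well, whereas Prrx2 (0.75) did so only with P5 replicate 4, S100a4 (0.37) depended on 5 libraries, and Pdgfra did not pass (-0.15, adjusted p = 0.462).

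In the extracellular matrix, 14 of 39 genes of elastic fibres, proteoglycans and crosslinking rose and 4 fell, and 9 to 13 rose when single libraries were left out, over 1.5 times off without P3 replicate 3 or P5 replicate 4. The fibulin Efemp1 rose (0.97, SE 0.14), and Prelp (0.69), Mfap2 (0.68) and Ogn (-0.60) depended on 1, 5 and 4 libraries. Of 22 collagens 2 rose and 1 fell. These counts, and those of the other matrix and contractile lists, stand against 13.4% of all genes tested that rose and 15.3% that fell. Col3a1 was at 4257 ± 516 CPM at P3 and 6297 ± 575 CPM at P5 (0.56, SE 0.13), the basement membrane chain Col4a5 rose (0.57, SE 0.13), Col8a1 fell (-0.75, SE 0.11) and Col1a1 did not pass (0.03, adjusted p = 0.856). Of 26 matrix proteases and inhibitors 9 rose and 5 fell, and 3 to 5 fell when single libraries were left out, over 1.5 times off without P3 replicate 3, P3 replicate 4, P5 replicate 2, P5 replicate 3 or P5 replicate 4. The inhibitor Timp2 (0.75, SE 0.11) and the protease Adamts1 (0.71, SE 0.090) rose, the macrophage elastase Mmp12 (-3.09, SE 0.39) and the neutrophil collagenase Mmp8 (-0.91, SE 0.24) fell, and Mmp3 did not pass (-0.23, adjusted p = 0.437). Of 24 contractile genes 3 fell, and 2 to 6 fell when single libraries were left out, over 1.5 times off without P3 replicate 1. The 3 were the muscle filament gene Des (-1.40, SE 0.23), Tagln2 (-0.41, SE 0.086) and Tpm1 (-0.33, dependent on 4 libraries). Acta2 did not pass (-0.40, adjusted p = 0.0661), but did without P3 replicate 1 and with the replicate number added to the fit.

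Of 31 cytokines and chemokines tested 4 rose and 1 fell, where 13.4% of all genes tested rose and 15.3% fell. From 1 to 4 fell when single libraries were left out, over 1.5 times off without P3 replicate 1, P3 replicate 2, P5 replicate 1, P5 replicate 2 or P5 replicate 4. The chemokines Ccl8 (0.93, SE 0.18), Cxcl14 (0.91, SE 0.25) and Ccl2 (0.56, SE 0.15) rose, and Il6 (-0.18, adjusted p = 0.716), Cxcl1 (0.80, adjusted p = 0.093) and Cxcl12 (-0.19, adjusted p = 0.518) did not pass. Cxcl1 passed without P5 replicate 4, with the 8 libraries of P3 and P5 alone and with the replicate number added to the fit. Inhba, the subunit of activin A, was at 533, 619, 599.8 and 835 CPM at P3 and at 389, 476, 303 and 422 CPM at P5, without overlap (-0.70, SE 0.15). Its mean was 316 CPM in P1 and 901 CPM in P7, so that the change from P3 to P5 lay below both the step before (-1.74, SE 0.25, adjusted p = 0.000297) and the step after (-1.88, SE 0.27, adjusted p = 0.00209).

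Of 35 interferon-stimulated genes 6 rose and 2 fell. These and the NF-kB, complement and AP-1 counts below stand against 13.4% of all genes tested that rose and 15.3% that fell. From 2 to 6 interferon-stimulated genes rose when single libraries were left out, over 1.5 times off without P3 replicate 4 or P5 replicate 4. Ifit3 was at 13.7, 13.9, 11.5 and 10.5 CPM at P3 and at 30.9, 26, 14.2 and 29.9 CPM at P5. P5 replicate 3 lay just above the P3 libraries and the other three well above (1.03, SE 0.19), and its near copy Ifit3b, with which reads may have been confused, moved with it (1.35, SE 0.28). Dhx58 (0.59) and Oasl1 (-1.10) depended on 7 and 6 libraries. Of 18 NF-kB genes 2 rose and 1 fell, with the subunit Rel lower (-0.88, SE 0.18) and Vcam1 (0.33) and Tnip1 (0.29) dependent on 1 and 4 libraries. Of 18 complement and acute phase genes 3 rose and 1 fell. Masp1, a protease of the lectin pathway, rose (0.68, SE 0.17), Saa3 fell (-2.44, SE 0.68), and Cd55 (0.76) and C1ra (0.39) depended on 2 and 5 libraries. Of 17 AP-1 and ATF factors 4 rose and none fell, and 0 to 5 rose when single libraries were left out, over 1.5 times off without P3 replicate 2, P3 replicate 3, P3 replicate 4, P5 replicate 3 or P5 replicate 4. They were Atf5 (0.51), Jund (0.56), Maff (0.40) and Jdp2 (0.31), which depended on 4, 4, 5 and 2 libraries, and Atf3 (0.56, adjusted p = 0.0772), Fos (0.13, adjusted p = 0.579) and Jun (-0.22, adjusted p = 0.0637) did not pass. All P5 libraries of Atf3 lay above those of P3, and it passed with the 8 libraries alone and without P5 replicate 2, as did Jun with DESeq2 and without P5 replicate 4.

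Counts in the signalling lists are to be read against the 13.4% of all genes tested that rose and the 15.3% that fell. Of 30 TEAD and YAP genes 3 fell and 1 rose. The YAP target Ankrd1 (-0.61, SE 0.16) and the kinase Lats1 (-0.43, SE 0.11) fell, Crim1 (-0.47) fell but depended on 4 libraries, Asap1 rose (0.44, SE 0.089), and Tead1 did not pass (-0.25, adjusted p = 0.134). Of 32 genes of TGF-beta, activin and BMP signals 4 rose and 5 fell, and 2 to 5 rose when single libraries were left out, over 1.5 times off without P3 replicate 2, P3 replicate 3 or P5 replicate 3. These included Inhbb up (0.52, SE 0.085), the receptor Tgfbr1 down (-0.51, SE 0.12) and Bmp4 (-1.35) dependent on 3 libraries. Of 26 Wnt genes 2 rose and 2 fell. Lgr5, a receptor of R-spondins, rose (0.95, SE 0.23), and Sfrp1 (0.82), Rspo1 (-1.33) and Wnt2b (-1.01) depended on 3, 5 and 6 libraries.

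Leaving out single libraries also moved smaller counts of these lists by over 1.5 times. For elastic fibre and proteoglycan genes that fell the range was 1 to 5, off without P3 replicate 1, P3 replicate 2 or P5 replicate 4. For interferon-stimulated genes that fell the range was 0 to 2, off without P3 replicate 1, P3 replicate 2, P3 replicate 3, P5 replicate 2, P5 replicate 3 or P5 replicate 4. For NF-kB genes that rose the range was 1 to 3, off without P3 replicate 2, P3 replicate 3, P3 replicate 4, P5 replicate 3 or P5 replicate 4. For complement genes that rose the range was 1 to 3, off without P3 replicate 3. For TGF-beta, activin and BMP genes that fell the range was 3 to 5, off without P3 replicate 4. For Wnt genes that rose the range was 1 to 4, off without P5 replicate 1, P5 replicate 2 or P5 replicate 3. For Wnt genes that fell the range was 0 to 2, off without P3 replicate 1, P3 replicate 2, P3 replicate 3, P3 replicate 4, P5 replicate 1 or P5 replicate 3. For glycolysis genes that fell the range was 0 to 1, off without P3 replicate 1, P3 replicate 2, P3 replicate 3 or P5 replicate 4. For cholesterol synthesis genes that fell the range was 1 to 2, off without P3 replicate 4 or P5 replicate 2. For collagens that fell the range was 1 to 2, off without P5 replicate 4. For AP-1 and ATF factors that fell the range was 0 to 1, off without P5 replicate 4.

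Of 26 IGF and imprinted growth genes 8 rose and 3 fell, where 13.4% of all genes tested rose and 15.3% fell. The 3 that fell were imprinted. H19, a noncoding RNA, was at 7.36, 9.12, 7.22 and 9.22 CPM at P3 and at 1.23, 2.9, 1.94 and 2.58 CPM at P5. There was no overlap (-1.93, SE 0.24), and Igf2, its neighbour on chromosome 7, fell by a like amount (-1.88, SE 0.27). Plagl1 fell (-0.83, SE 0.19) and Meg3 rose (0.74, SE 0.16). Igf1 (0.05), Igfbp3 (0.16) and Igfbp5 (0.11) did not pass. Strand was not used in the counting, so reads where Igf2 and Igf2os overlap are uncertain. Reads where H19 and Mir675 overlap are uncertain as well.

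Endothelial, skeletal muscle and macrophage markers still had reads at P3. In each of these 3 lists 8 of the genes tested fell at P5, where 15.3% of all genes tested fell. No keratinocyte, Schwann cell or melanocyte marker passed as lower. Genes were kept for testing by counts over the 16 passage libraries, so a marker could enter through P1, and nothing is read from these shares. The 12 largest falls among called genes with an average log2 CPM of at least 2 over the 16 passage libraries and no overlap were Cd36, Myh3, Scn3a, Myl1, Msr1, Actc1, Mmp12, Myh1, Tie1, Ctss, Hk3 and Itgam. This average includes P1, where the 12 had means of at least 15.4 CPM, against at most 7.28 CPM at P3, so a gene could enter through P1 and nothing is read from which kinds of gene they are. Cd36, a fatty acid receptor, was at 2.1, 4.6, 3.93 and 4.46 CPM at P3 and at a mean of 0.162 CPM at P5 (-4.44, SE 0.43), and its mean at P1 had been 61.8 CPM. Of 12 endothelial markers 8 fell, among them Tie1 (-2.98, SE 0.48), Cldn5 (-2.70, SE 0.47), Pecam1 (-2.58, SE 0.35) and Emcn (-2.12, SE 0.44). Their sum, 216 to 255 CPM at P3 and 195 to 233 at P5, was carried by Flt1, with means of 181 and 187 CPM. Of 13 skeletal muscle markers tested 8 fell, with a sum of 56.9 to 62 CPM at P3 and 31.2 to 58.3 at P5. Myh3 had means of 2.3 and 0.168 CPM, Myog, Myh8 and Myod1 were under 1 CPM at both passages, and Myf5 and Pax7 had no read at P5.

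Of 19 macrophage markers tested 8 fell and none rose, and 5 fell without P3 replicate 2. Their sum was 64.5 to 84.5 CPM at P3 and 34.1 to 46.5 at P5. Adgre1 (F4/80) was at 1.23 ± 0.473 CPM at P3 and 0.133 ± 0.179 CPM at P5, Cybb (-1.94, SE 0.35) and Mrc1 (-1.91, SE 0.41) fell, Ptprc (-1.78) depended on 3 libraries, and Aif1 had no read at P5. None of 12 keratinocyte markers tested passed, with a sum of 5.62 to 8.48 CPM at P3 and 6.66 to 12.2 at P5, and 8 of 16 listed, Krt5 and Cdh1 among them, had no read at P5. Of 10 Schwann cell and melanocyte genes tested Mlana rose (0.712 to 2.17 CPM), with a sum of 227 to 267 CPM at P3 and 192 to 358 at P5. Of 5 adipocyte genes Cd36 fell and Cebpa rose, dependent on 5 libraries, with a sum of 241 to 428 CPM and then 281 to 516, and Adipoq, Cidec, Lep and Retn had no read at P5. Of 6 pericyte genes Ndufa4l2 (8.37 to 23.8 CPM) and Notch3 (0.92) rose and Cspg4 fell (-0.83), the latter 2 each dependent on 1 library, with a sum of 207 to 355 CPM and then 170 to 305. The part of these markers' cells in the falls of the cell cycle lists was not tested.

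The 12 largest rises under the same rule were in Hsd3b6, Cdkn2a, Hist1h4h, 1500015O10Rik, Cys1, Sncg, Ndufa4l2, Cd53, Prl2c2, Mgst3, Pamr1 and Serpinb1a, with the same average over all passages. Hsd3b6, which entered through its level at P7 and is a steroid dehydrogenase, had means of 0.125 CPM at P3, 1.5 at P5 and 16.6 at P7. Hist1h4h, a histone H4 gene, was at 1.36 ± 0.145 CPM at P3 and 5.1 ± 2.18 CPM at P5 (1.90, SE 0.29), and gamma-synuclein (Sncg) at 6.33 ± 2.19 CPM at P3 and 18.2 ± 2.59 CPM at P5 (1.52, SE 0.23). Cd53, a tetraspanin best known from leukocytes, was at 5.85, 10.3, 6.45 and 9 CPM at P3 and at 23.9, 21.4, 21.2 and 16.7 CPM at P5. It rose without overlap (1.40, SE 0.18), and its mean at P7 was 80.5 CPM. Which cells this RNA came from was not tested. Mgst3, a microsomal glutathione transferase, was at 11 ± 2.78 CPM at P3 and 27.2 ± 7.01 CPM at P5 (1.31, SE 0.19). None of the 113 genes called higher was in the 8 cell cycle lists, and 93 had a mean under 5 CPM at P3. So did 190 of the 410 genes called lower.

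The called genes were then followed in the E2f4 experiments, which share no library with the passages. E2f4 was at 35.5 and 47.5 CPM in the vector controls and at 1118 and 1179.8 CPM in the overexpressing libraries, and at 59.6, 60.8 and 59.6 CPM with the non-targeting hairpin and 21.6, 20.4 and 21.8 CPM with sh1. With overexpression, 28.9% of all genes tested rose and 28.2% fell. Of 281 tested genes called lower at P5, 117 rose (41.6%) and 49 fell (17.4%), and of 96 called higher, 7 rose (7.29%) and 39 fell (40.6%). The 39 were 24 with DESeq2. They were also fewer in every fit without 1 library, which leaves 1 library in a group. Reads assigned to no gene were 12.9% and 12.3% of the totals with the vector and 7.89% and 7.5% with overexpression, and their part in these shares was not tested. The 49 were 28 without overexpression replicate 2, and the 7 were 11 without vector replicate 2. With sh1, 10% of all genes tested rose and 7.79% fell. Of 249 genes called lower at P5, 9 rose (3.61%) and 88 fell (35.3%), and of 86 called higher, 17 rose (19.8%) and 1 fell (1.16%). The 88 were 54 without non-targeting replicate 1 or 2 and 52 without replicate 3. In the 8 cell cycle lists, 61 of 109 genes called lower rose with overexpression (56%) and 9 fell (8.26%), and 61 of 108 fell with sh1 (56.5%) and none rose. Of called genes in neither these nor the other cell type lists, 32.7% rose and 23.8% fell with overexpression, and 5.8% rose and 19.6% fell with sh1.

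**Figure D5:**
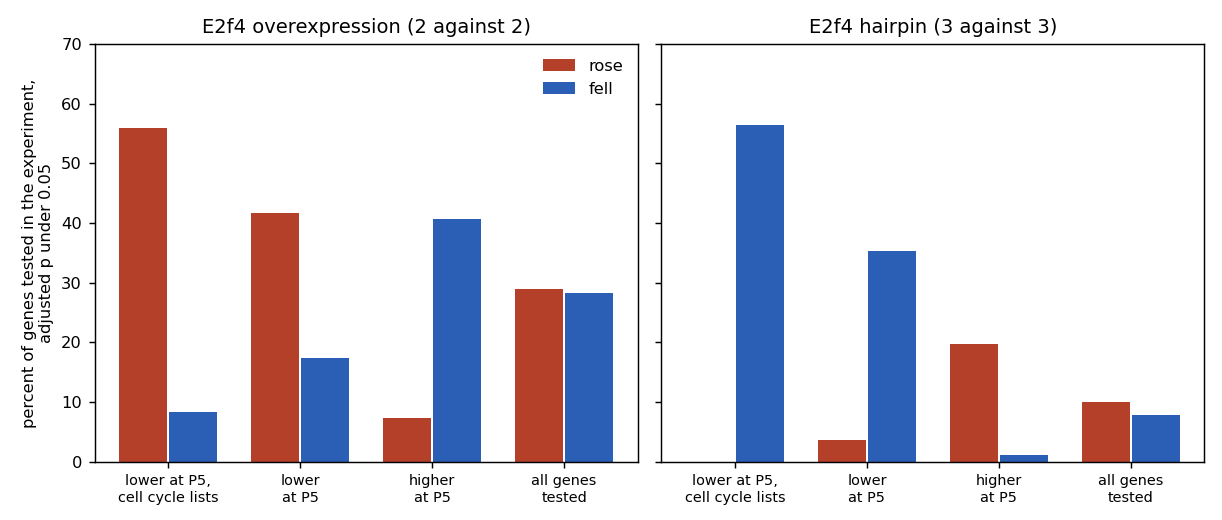
Percent of the genes tested in each E2f4 experiment that rose or fell with an adjusted p under 0.05, for genes called at P5 against P3 and for all genes tested. Genes called lower at P5 rose in 41.6% and fell in 17.4% with overexpression (left), and rose in 3.61% and fell in 35.3% with the hairpin (right).

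Single genes differed in these readouts. With overexpression, Mcm5 (1.57, SE 0.11, adjusted p = 4.87e-06), Lmnb1 (1.40, SE 0.11, adjusted p = 1.01e-05), Mybl2 (1.37, SE 0.15, adjusted p = 4.28e-05) and Cdk1 (1.03, SE 0.11, adjusted p = 3.21e-05) rose. With sh1 the same 4 genes fell, Mcm5 by 0.42, Lmnb1 by 0.53, Mybl2 by 0.65 and Cdk1 by 0.28 on the log2 scale. Mki67 did not pass with overexpression (0.04, SE 0.15, adjusted p = 0.849) and fell with sh1 (-0.57, SE 0.079, adjusted p = 0.000207), as did Top2a (0.24, SE 0.12, adjusted p = 0.117, then -0.55, SE 0.075, adjusted p = 0.000186). Kif15 fell in both (-0.50, SE 0.19, adjusted p = 0.0428, then -0.44, SE 0.13, adjusted p = 0.0267). Of the genes that rose at P5, Cdkn2a was lower with overexpression (-0.83, SE 0.12, adjusted p = 0.000205) and did not pass with sh1 (-0.16, SE 0.086, adjusted p = 0.214), Cdkn1a passed in neither (0.09, SE 0.12, adjusted p = 0.527, then 0.21, SE 0.076, adjusted p = 0.0734), and Cd53 fell with overexpression (-2.95, SE 0.18, adjusted p = 2.66e-06) and rose with sh1 (0.72, SE 0.13, adjusted p = 0.00163). H19 was at 42.8 and 59.5 CPM in the vector controls and at 918 and 954 CPM with E2f4 overexpression. With sh1 H19 fell (-0.69, SE 0.13, adjusted p = 0.00173). Igf2 rose with overexpression (1.93, SE 0.14, adjusted p = 6.54e-06) and did not pass with sh1 (0.10, SE 0.14, adjusted p = 0.679).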

How the data were processed

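RNA-seq gene counts of serially passaged mouse skin fibroblasts were used, with 4 libraries per passage. Reads were trimmed by the authors in Trimmomatic 0.39, mapped to mm10 with HISAT2 2.2.1 and made the deposited counts per gene with HTSeq 0.12.4, without strand, so reads on overlapping genes are uncertain. HTSeq's summary lines name no gene and were left out; in the E2f4 files they made up 12.9% and 12.3% of the totals with the vector, 7.89% and 7.5% with overexpression, and 10.8% to 16.1% in the hairpin libraries.

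The counts of the 16 passage libraries were fitted together in R 4.3.3 with edgeR 4.0.16 (filterByExpr, TMM, glmQLFit, glmQLFTest, 1 coefficient per passage), with p-values adjusted by Benjamini and Hochberg over all 13442 genes tested. Steps were compared as contrasts of the same fit, and each E2f4 experiment was fitted alone (9147324 to 27552949 counts per library). Alternatives were DESeq2 1.42.0, RLE size factors, other filters and folds, the 8 libraries alone, a replicate block and leaving out each library. On simulated counts of 13299 genes for P5 against P3, 98% of genes changed by a log2 fold of 2 and 84.7% of those changed by 1 were found. No replicate pair agreed within sampling noise.

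Members and lists were chosen with earlier results of these data known. Named genes were the 12 largest changes in each direction among called genes whose libraries did not overlap and whose average log2 CPM reached 2, up to 4 genes with the largest passing change in each list (the 2 lowest p where none passed), and a fixed set of senescence, E2F and matrix genes; other genes were named after their values were seen. Gene models and promoters were from RefSeq on GRCm38.p6.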

Additional observations from a re-analysis of the deposited data

Results flagged for a closer look

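Among 346 groups of 4 libraries of the named genes, 27 held a library whose CPM stood apart from the other three by Dixon's criterion, 14 at P3 and 13 at P5. Chance gives about 1 in 20 for normally distributed values, which CPM near 0 are not, so no excess is read from this. In these, the value of the library that stood apart is given in CPM. P3 replicate 2 was high for Igf1 (22.2) and Plagl1 (11.2). P3 replicate 3 was high for Cxcl1 (5.87) and Dck (37.7). P3 replicate 4 was high for Crim1 (135) and Prelp (464). P5 replicate 1 was high for Foxm1 (39.3) and Myog (0.0646). P5 replicate 2 was high for Rel (3.6). P5 replicate 3 was high for Fos (14.6), Myod1 (0.0646) and Tm7sf2 (12). P5 replicate 4 was high for Crim1 (84.8), Cspg4 (112), Hk3 (0.265), Myh8 (0.0662) and Ptprc (0.397). P3 replicate 1 was low for Blm (16.2). P3 replicate 2 was low for Jdp2 (60.7). P3 replicate 3 was low for Adamts1 (466), Gsn (715) and Ptprc (0.322). P3 replicate 4 was low for Itgam (0.878), Slc16a1 (46.8) and Stard4 (71.4). P5 replicate 2 was low for Tagln2 (208). P5 replicate 3 was low for Asap1 (206). Hk3, Myh8, Myod1 and Myog had no read in the other three libraries of P5, so the library with reads stood apart by construction.

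By the test of the difference between steps, the change from P3 to P5 differed from that of P1 to P3 for 2265 genes and from that of P5 to P7 for 176 genes. Plk4 was among the first of these sets and Inhba in both.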

How the results depend on the processing

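Of 173 named genes tested, 4 changed direction at P5 against P3 under an alternative that was run, none of which had passed. Without single libraries E2f1 ranged from -0.12 to 0.10 (0.10 without P3 replicate 1, 0.0044 without P5 replicate 2), Col1a1 from -0.070 to 0.12 (-0.014 without P3 replicate 2, -0.019 without P5 replicate 3, -0.0697 without P5 replicate 4), Il6 from -0.55 to 0.06 (0.036 without P3 replicate 2, 0.057 without P5 replicate 4) and Igf1 from -0.20 to 0.18 (-0.20 without P5 replicate 2). Of 153 named genes that passed, 35 no longer did without 1 or more libraries. With DESeq2, 264 genes lay below and 259 above the step from P5 to P7, and 24 genes called higher fell with E2f4 overexpression. With at least 10 counts in every library, which leaves fewer genes, 223 genes were called lower and 38 higher, and with a fold over 1.5 these were 904 and 522. Without P5 replicates 1 and 2, 247 genes were called higher, and without P5 replicates 3 and 4, 45 were called higher, 500 rose, 851 fell and 12 lysosome genes rose, both chosen after seeing the data. Without a filter on low counts, 2 genes called higher fell with sh1. In the 250 bases before the start alone, 16.9% of windows of genes called lower held E2F and 20.8% CHR letters, against 13.4% and 12.2% for all genes tested. Leaving out single libraries gave 1144 to 2032 rising genes and 17 to 26 rising lysosome genes, 493 to 1774 genes below and 429 to 1332 above the step from P1 to P3, and 15 to 135 below and 19 to 87 above that from P5 to P7. With E2f4 overexpression it gave 28 to 67 genes called lower that fell and 5 to 11 called higher that rose. With sh1 it gave 3 to 8 genes called lower that rose, 52 to 97 that fell, and 0 to 3 called higher that fell. The cause of these differences was not tested. With the replicate block 425 genes were called lower and 115 higher. Acta2 (-0.39, adjusted p = 0.0303) and Cxcl1 (0.77, adjusted p = 0.0354) passed under it, and Osgin1 and Wnt2b did not (both adjusted p = 0.0524). With the 8 libraries alone Atf3 (adjusted p = 0.019) and Cxcl1 (adjusted p = 0.049) passed, and with DESeq2 Jun did (adjusted p = 0.0497). Deviations of same-numbered P3 and P5 libraries correlated at -0.157, 0.235, 0.113 and 0.125, and 2 of 4 numbers correlated best with their own. Since not every pair was over 0.1 and no label ties the numbers to a shared source, the block was not used elsewhere, and a pairing is not excluded by these values.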
